A study of Mus musculus with 312 samples.

Results

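Immediate early genes and the subunits of the transcription factor AP-1 were followed in single cells of the mouse mammary gland. The set comprised 10 genes chosen by symbol among the 25136 genes used, namely the Fos family (Fos, Fosb, Fosl1 and Fosl2), the Jun family (Jun, Junb and Jund), the activating factor Atf3 and the further immediate early genes Egr1 and Ier2. The cells came from FVB/NJ mice, carried the label basal, received no treatment according to the labels and passed through the Fluidigm C1, a microfluidic device in which every cell sits alone while its RNA is copied into cDNA. Of the 312 cells, 237 were labelled adult and 75 were labelled pregnancy. The adult titles formed 2 sets, 112 cells titled with a (2) that the labels do not explain and 125 cells titled without it. The labels give neither the age of the adults nor the day of pregnancy. The study gates adult basal cells as Lin-CD29hiCD24+, where Lin stands for Ter119, CD31 and CD45. For pregnancy on the C1 it lists total epithelium only, with more cells than the 75 here. Whether these 75 are among those cells, and how they were sorted, is therefore not known. Their basal identity rests here on their label and their markers. No animals are named, so each group is 1 sample and no test over cells was made. Every interval below is a 95% interval over the cells measured. It reflects their number and, for medians, their spread, and does not cover differences between animals. Stage cannot be told apart from capture run or title form.

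The limits of 50000 assigned reads and 1000 detected genes per cell left 81 (2)-titled adult cells, 58 other adult cells and 71 pregnancy cells. Assigned reads are reads in all genes other than the mitochondrial and ribosomal protein genes. Their median per cell was 174910, 101320 and 230645 in that order, and the median mitochondrial share of all reads was 9.65%, 15.6% and 18.4%. At least 6 of 11 basal markers, among them Krt14 and Acta2, reached 100 CPM (counts scaled so that every cell holds 1000000 assigned reads) in 93.8%, 87.9% and 98.6% of the retained cells. All 11 were detected in each group. Of the cells, 7, 7 and 4 carried 3 or more genes of a luminal, immune, endothelial, fibroblast or pericyte list at that level. The summed CPM of 8 fibroblast genes had a median of 3.13, 34.6 and 681, and most of it in pregnancy was Dcn, a matrix proteoglycan, with a mean of 1113 CPM.

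AP-1 is a dimer of basic leucine zipper proteins. Fos family proteins pair mainly with Jun family proteins and do not form stable dimers with each other, whereas Jun proteins can also pair with each other and with relatives such as Atf3. Fos, Fosb, Egr1, Ier2, Jun, Junb and Atf3 are switched on within minutes by growth factors, calcium or stress through kinases that act on factors already bound to their promoters, and their transcripts are short lived. Tissue dissociation and sorting are known to induce the same genes, and dissociated cells were the only material measured here, so that its part in these levels was not tested. Junb and Jund are weaker activators than Jun in many settings, and Fosl1 and Fosl2 are usually induced later than Fos and lack its strong activation domain.

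Promoter windows of 250 bases upstream of the start were found for 7 of the 10 genes in the RefSeq annotation of GRCm38.p6. They are shown 5′ to 3′ for Fos, the most abundant of the genes per length, for Atf3, the other gene with a match, and for Jun, whose mean was more than 2-fold higher in pregnancy than in each adult set. Capitals mark the first 6 letters of the cyclic AMP response element, TGACGT, or their reverse complement, and Jun has none.
Fos, chr12:85473640-85473889, plus strand: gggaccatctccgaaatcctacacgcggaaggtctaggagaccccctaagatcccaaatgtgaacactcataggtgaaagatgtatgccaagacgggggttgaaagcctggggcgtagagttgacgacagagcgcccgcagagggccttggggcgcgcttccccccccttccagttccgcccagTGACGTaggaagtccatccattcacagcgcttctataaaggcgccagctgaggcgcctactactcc
Atf3, chr1:191183334-191183583, minus strand: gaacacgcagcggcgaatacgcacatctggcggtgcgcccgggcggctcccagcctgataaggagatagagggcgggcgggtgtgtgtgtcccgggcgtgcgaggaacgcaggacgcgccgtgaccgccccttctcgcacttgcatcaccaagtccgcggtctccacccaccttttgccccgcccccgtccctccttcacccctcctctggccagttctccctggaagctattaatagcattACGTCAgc
Jun, chr4:95052223-95052472, minus strand: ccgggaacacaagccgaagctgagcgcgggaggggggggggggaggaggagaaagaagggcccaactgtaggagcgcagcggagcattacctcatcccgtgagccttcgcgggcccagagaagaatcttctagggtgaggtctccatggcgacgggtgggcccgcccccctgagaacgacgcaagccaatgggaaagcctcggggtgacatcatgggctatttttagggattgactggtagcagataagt
The match lay at positions -66 to -61 from the start in Fos and at -8 to -3 in Atf3, and such a match was present on either strand in 6.47% of 32851 windows of all genes. The full element TGACGTCA (1.55% of all windows) and the CArG box bound by the serum response factor (1.47%) were in none of the 7 windows. Neither was the AP-1 site when searched as TGACTCA or TGAGTCA (4.46%). Other spellings of the AP-1 site were not searched for, so their absence is not shown. These matches describe letters in the windows only.

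Fos was the most abundant of the 10 genes in each group when levels were compared per length, as CPM divided by the exon length in kilobases (RPKM). Its median was 1282 RPKM in (2)-titled adult cells, 485 RPKM in other adult cells and 1375 RPKM in pregnancy cells. Egr1, a zinc finger factor that is also induced by growth factors, came next in each group, with medians of 746, 142 and 635 RPKM. The intervals of Fos and Egr1 did not overlap in pregnancy (1014 to 1704 against 451 to 817 RPKM) but did in both adult sets. In pregnancy Fosb, Jun, Atf3 and Junb followed at 207, 182, 147 and 145 RPKM with overlapping intervals, then Ier2, Jund and Fosl2 at 18.6, 12.9 and 10.5 RPKM, also overlapping. In both adult sets Atf3 and Fosb stood ahead of Junb, and Junb ahead of Jun, and of these neighbours only Fosb and Junb in (2)-titled cells had intervals that did not overlap. The median of Fosl1 was 0 in each group. The 10 genes together took 1.05%, 0.734% and 0.990% of all assigned reads, and between 0.0034% and 5.17% in single cells.

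**Figure D1:**
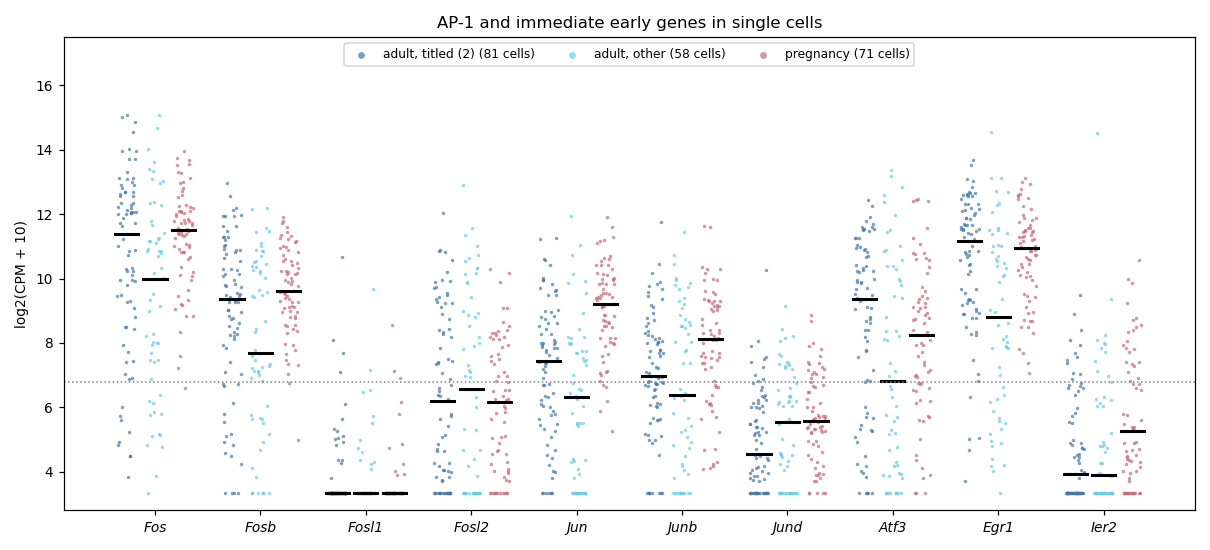
Level of each gene in each retained cell, as log2(CPM + 10), for 81 (2)-titled adult cells, 58 other adult cells and 71 pregnancy cells; black bars are medians and the dotted line is 100 CPM. Jun lies higher in pregnancy (median 581 CPM) than in both adult sets (163 and 69.0 CPM), and the single Ier2 point above 14 is 1 other adult cell at 23492 CPM.

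Fos, which encodes the founding partner of Jun, occupies chromosome 12 at 85473890 to 85477274 (mm10). In (2)-titled adult cells it ranged from 4.15 to 34411 CPM with a median of 2683 CPM, in other adult cells from 0 to 34370 CPM with a median of 1014 CPM, and in pregnancy cells from 87.3 to 15858 CPM with a median of 2877 CPM. The 3 groups overlapped over most of their range, and the lowest cells were adult. The means were 5020, 3337 and 3860 CPM, and the log2 ratio of the means, pregnancy over all 139 adult cells, was -0.16. The direction depended on the scale, since the mean of log2(CPM + 10) was 1.16 higher in pregnancy. The lower quartile was 538, 161 and 1588 CPM, so that fewer pregnancy cells had a low level, while the cells with the highest levels were adult. At least 1000 CPM of Fos was present in 64.2%, 50% and 81.7% of cells.

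Fosb, which gives a full-length activator and a truncated form (chromosome 7, 19302696 to 19310118), showed the same contrast of mean and distribution. Its means were 1225, 825 and 1113 CPM and its medians 648, 196 and 781 CPM. Cells ranged from 0 to 8023, from 0 to 4702 and from 21.8 to 3814 CPM. It reached 100 CPM in 79.0% of (2)-titled adult cells (68.5 to 87.3), 70.7% of other adult cells (57.3 to 81.9) and 97.2% of pregnancy cells (90.2 to 99.7). Every pregnancy cell held Fosb reads, whereas 4 and 6 cells of the adult sets held none.

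Egr1 (chromosome 18, 34861207 to 34864956) had nearly equal means in pregnancy and in all adult cells, 2439 and 2449 CPM, a log2 ratio of -0.01. The 2 adult sets differed more from each other, with means of 2859 and 1875 CPM and medians of 2293 and 436 CPM, than the pregnancy median of 1949 CPM did from that of the (2)-titled set. Cells ranged from 3.10 to 13009, from 0 to 24056 and from 123 to 8840 CPM. All 71 pregnancy cells reached 100 CPM of Egr1, against 93.8% and 69.0% of the adult sets.

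Jun encodes the partner that both Fos family and Atf3 proteins can bind (chromosome 4, 95049036 to 95052222). Its means were 335 CPM in (2)-titled adult cells, 281 CPM in other adult cells and 793 CPM in pregnancy cells, and its medians were 163 CPM (93.9 to 233), 69.0 CPM (32.9 to 162) and 581 CPM (402 to 739). Cells ranged from 0 to 2435, from 0 to 3964 and from 28.7 to 3883 CPM. The groups overlapped cell by cell. The interval of the pregnancy median lay above those of both adult sets, which describes the cells measured and not a difference between animals. The log2 ratio of the means was 1.32 for pregnancy over adult (2.49-fold), 1.22 over the (2)-titled set and 1.47 over the other adult set, while the adult sets differed from each other by -0.25, other over (2)-titled. Over 12 other ways of scaling, selecting or averaging cells the pregnancy over adult ratio of Jun stayed between 1.11 and 2.27.

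Jun reached 100 CPM in 93.0% of pregnancy cells (84.3 to 97.7), against 59.3% (47.8 to 70.1) and 41.4% (28.6 to 55.1) of the adult sets. It reached 1000 CPM in 20 of 71 pregnancy cells and in 10 of 139 adult cells. The difference therefore appeared in the mean, the median and the share of cells. Without the cells that carried 3 or more genes of another cell type list the ratio was 1.37. Across pregnancy cells the Spearman correlation of Jun with the summed fibroblast genes was 0.11 and with assigned reads -0.01, as descriptions over 71 cells.

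Junb, which can oppose Jun in some cell types (chromosome 8, 84976909 to 84978748), was higher in pregnancy by a smaller amount. Its means were 271, 321 and 441 CPM and its medians 114, 74.0 and 268 CPM, giving a log2 ratio of 0.58 over all adult cells. It kept its sign under all 12 alternatives, against both adult sets as well, but stayed below 2-fold for the ratio of means in the main setting. Jund, the most constitutively expressed of the family in many tissues (chromosome 8, 70697739 to 70700616), was low here, with means of 52.6, 75.0 and 69.2 CPM. Its medians were 13.4 CPM (6.40 to 31.0), 37.0 CPM (11.9 to 63.4) and 37.2 CPM (29.3 to 53.6), with overlapping intervals. Most single values of Jund rest on few reads, since the 3 groups held 604, 511 and 1037 Jund reads in all.

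Fosl2 (chromosome 5, 32136472 to 32157840) had the opposite difference in the means only. Its means were 330, 546 and 152 CPM, a log2 ratio of -1.41 for pregnancy over adult, with -1.07 and -1.78 against the separate sets. Its medians, 63.7, 84.5 and 61.7 CPM, and its shares of cells at 100 CPM, 42.0%, 48.3% and 39.4%, lay close together. Cells ranged from 0 to 4227, from 0 to 7668 and from 0 to 1258 CPM. The lower pregnancy mean came with fewer cells of very high level: 6 of 81 and 11 of 58 adult cells reached 1000 CPM (7.41% and 19.0%), against 2 of 71 pregnancy cells (2.82%, 0.343 to 9.81). These 17 adult cells held 64.0% of all adult Fosl2 CPM, and 3 of them carried 3 or more genes of another cell type list. Their median Fos level was 555 CPM, against 1851 CPM in the other adult cells. On the mean of log2(CPM + 10) the Fosl2 difference was -0.37, and in the comparison with the (2)-titled set the ratio of means was -0.99 without the highest cell of each group.

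Atf3, a stress-induced factor that often represses (chromosome 1, 191170296 to 191183333), had the widest SD of log2(CPM + 10) of the 10 genes in other adult cells and in pregnancy, 3.28 and 2.40 after thinning each cell to 50000 reads. Its means were 1094, 1151 and 788 CPM and its medians 652, 104 and 291 CPM. The pregnancy median lay between those of the adult sets. At least 1000 CPM was present in 38.3%, 27.6% and 21.1% of cells. The log2 ratio of the means was -0.50 over all adult cells, and it changed sign on the mean of log2 scale.

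Ier2, a nuclear protein of the early response (chromosome 8, 84661331 to 84662852), had means of 50.7, 459 and 130 CPM. The mean of the other adult set rested on 1 cell, number 174, which held 23492 CPM and 88.2% of the sum, and without it the mean was 55.2 CPM. This cell held 101651 assigned reads, 14.2% mitochondrial reads and 8 of 11 basal markers, so it was not exceptional in these measures. The log2 ratio was 1.20 against the (2)-titled set and -1.75 against the other set, and the latter became 0.88 when the highest cell of each group was left out. The medians were 5.03, 4.84 and 28.3 CPM. Fosl1 (chromosome 19, 5447698 to 5455938) was found in 17, 13 and 11 cells only and its means of 31.0, 21.9 and 10.9 CPM each rested on 1 cell for 64.8%, 63.8% and 47.1%. Its log2 ratio, pregnancy over adult, was -0.83 and kept its sign under all 12 alternatives, with values between -1.25 and -0.17.

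**Figure D2:**
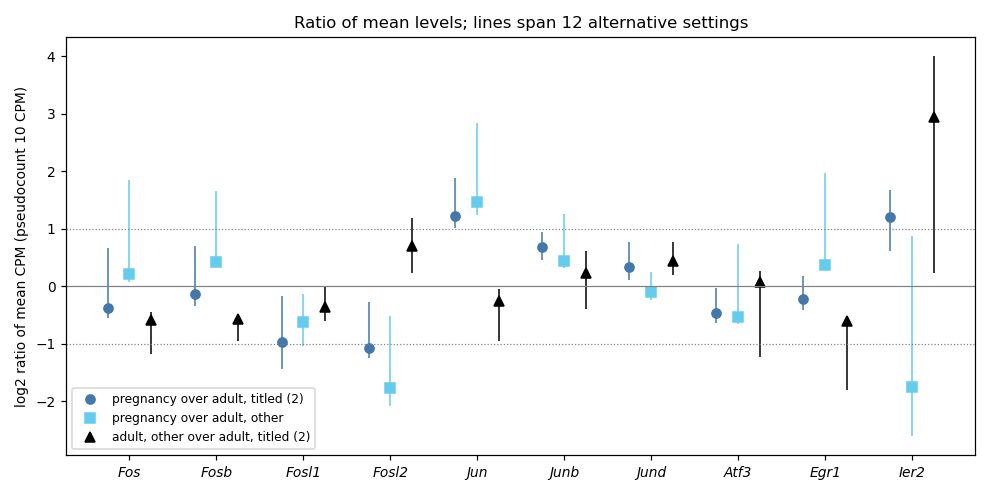
Log2 ratio of mean CPM (pseudocount 10 CPM) for each gene, pregnancy over each adult set and between the adult sets; vertical lines span the values under 12 alternative settings and dotted lines mark 2-fold. Jun is above 2-fold against both adult sets (1.22 and 1.47), Fosl2 below it against both (-1.07 and -1.78), and the 2 Ier2 ratios that involve the other adult set (-1.75 and 2.95) rest on 1 cell.

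Counted over the 10 genes, 1 was at least 2-fold higher in pregnancy than in adult cells (Jun) and 1 was at least 2-fold lower (Fosl2), where 15.6% and 13.5% of 4548 genes with a mean of 50 CPM or more passed the same limits. Against the (2)-titled set, Jun and Ier2 were higher and Fosl2 was lower (18.4% and 15.0% of 4574 genes). Against the other adult set, Jun was higher and Fosl2 and Ier2 were lower (19.7% and 19.3% of 4694 genes). Between the adult sets, Ier2 alone was past 2-fold, higher in the other set, and none was lower (18.9% and 16.7% of 4578 genes). These counts lie near the background, and 9 of the 10 genes passed the mean limit while Fosl1 did not. The median log2 ratio over the 10 genes, pregnancy over adult, was -0.08, against 0.05 over all genes, and the median size of the ratio was 0.54 against 0.62.

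The balance of subunits was computed from mean RPKM. The Fos family summed to 2797, 1919 and 2171 RPKM and was mostly Fos in each group, 85.7%, 83.1% and 84.9% of the sum. Fosb made up 11.6%, 11.4% and 13.6%. The Jun family summed to 271, 289 and 513 RPKM. Junb held 54.4% and 60.5% of the adult sums, while Jun and Junb were close in pregnancy, at 48.6% and 46.7% of the sum. Within single cells Jun was the most abundant Jun family transcript in 39 of 71 pregnancy cells and in 33 of 80 and 16 of 56 adult cells with any Jun family read. Fos at 100 CPM without any Jun family gene at that level was found in 19.8% (11.7 to 30.1) and 25.9% (15.3 to 39.0) of the adult sets and in 5.63% (1.56 to 13.8) of pregnancy cells. Transcript ratios are not protein ratios.

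Most cells carried several of the genes at once. The median number at 100 CPM or more was 5 of 10 in both adult sets and 7 of 10 in pregnancy, with ranges of 0 to 8, 0 to 9 and 2 to 9. At least 6 were present in 49.4% (38.1 to 60.7), 39.7% (27.0 to 53.4) and 74.6% (62.9 to 84.2) of cells. Fos, Egr1 and Fosb together reached 100 CPM in 71.6%, 48.3% and 97.2% of cells. None of these 3 genes did so in 1 and 5 adult cells and in 0 of 71 pregnancy cells, a count compatible with a share of at most 5.06%. The order of the groups was the same at 500 CPM, where at least 6 genes were found in 8.64%, 3.45% and 9.86% of cells, but the gap between pregnancy and (2)-titled cells was small. The share of cells at 100 CPM was higher in pregnancy than in both adult sets for 6 of the 10 genes (Fos, Fosb, Jun, Junb, Egr1 and Ier2). The same held for 47.9% of 5197 genes with a mean of 50 CPM or more in any group, and for 72.4% of the 583 genes with a mean of 200 CPM or more in every group.

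**Figure D3:**
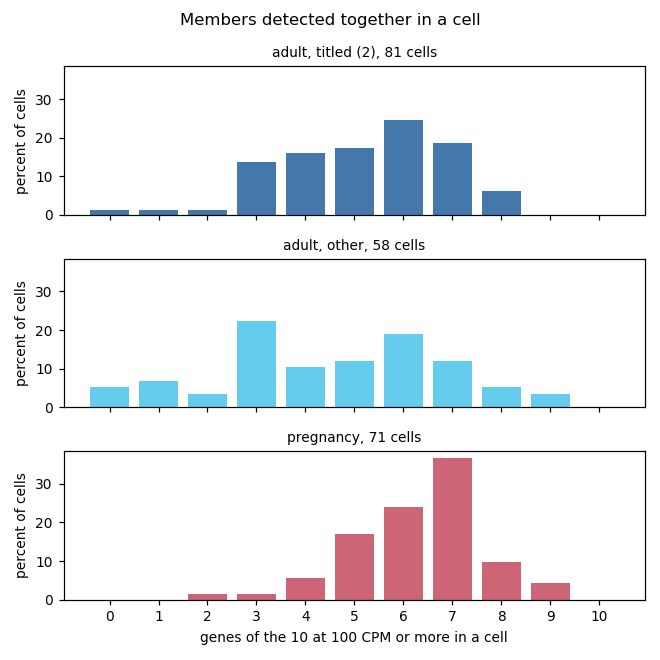
Percent of cells (vertical axis) by the number of the 10 genes at 100 CPM or more (horizontal axis), in each group. The median is 5 in both adult sets and 7 in pregnancy, and cells with fewer than 2 of the genes occur only among the adult cells.

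The genes were also more even from cell to cell in pregnancy. With every cell thinned to 50000 reads, the SD over cells of log2(CPM + 10) was 2.89, 3.03 and 1.72 for Fos, 2.60, 2.79 and 1.33 for Fosb and 2.23, 2.89 and 1.43 for Egr1. It was 2.21, 2.49 and 1.53 for Jun. The upper quartile of Fos was 11.7 times the lower quartile in (2)-titled adult cells, 16.5 times in other adult cells and 2.83 times in pregnancy. The SD was lower in pregnancy than in both adult sets for 8 of the 10 genes, and Junb and Ier2 were the exceptions. This was not particular to them: it held for 43.2% of the 5197 genes and for 90.2% of the 583 abundant genes, of which 6 are among the 10 here and 5 of those 6 followed it.

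**Figure D4:**
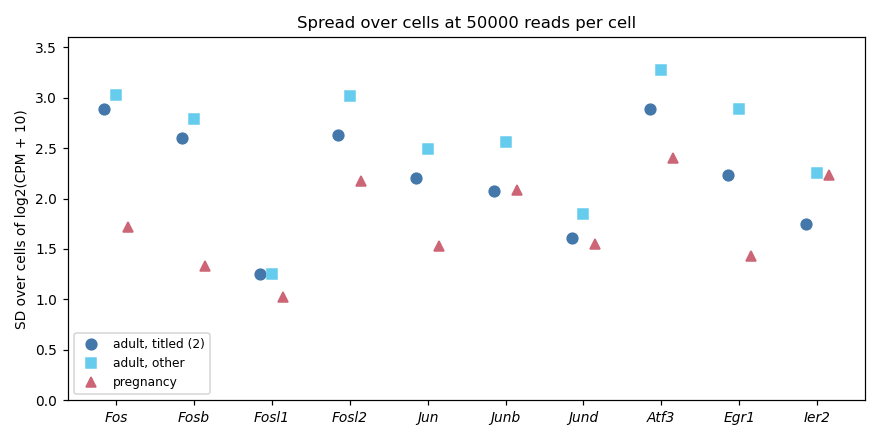
SD over cells of log2(CPM + 10) for each gene after thinning each cell to 50000 assigned reads (vertical axis starts at 0), in 81 (2)-titled adult, 58 other adult and 71 pregnancy cells. The pregnancy value is the lowest of the 3 for 8 genes, with 1.72 for Fos against 2.89 and 3.03 in the adult sets.

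Across cells within a group, Fos and Egr1 were among the pairs that varied most closely together. Their Spearman correlation was 0.61 over 81 (2)-titled adult cells, 0.49 over 58 other adult cells and 0.61 over 71 pregnancy cells, and 0.60, 0.46 and 0.62 after thinning to equal depth. Fos and Junb had 0.27, 0.72 and 0.50, Fos and Jun 0.33, 0.43 and 0.40, and Junb and Ier2 0.26, 0.59 and 0.51. Fosb and Atf3 had 0.46 and 0.50 in the adult sets and 0.06 in pregnancy. Correlations of Fosl1 and Fosl2 were lower. The 17 pairs with either of them had correlations between -0.19 and 0.21 with medians of -0.07, 0.06 and -0.01, whereas all 28 pairs among the other 8 genes were above 0 in each group, with medians of 0.32, 0.39 and 0.23. Under other filters or thinning the number above 0 in pregnancy was between 25 and 27 of 28, and it was 27 of 28 in other adult cells under the stricter filter of 100000 reads and 1500 genes. The separation was not complete, since Fosl2 with Junb (0.12, 0.15 and 0.21) exceeded Jund with Ier2 (0.08, 0.17 and 0.02) in 2 groups. The split into 8 and 2 genes was made after the values were seen. Fosl1 was at 0 in most cells, which limits its correlations. Whether cells of a group share an animal or a capture run is not labelled, so these values only describe the cells measured.

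**Figure D5:**
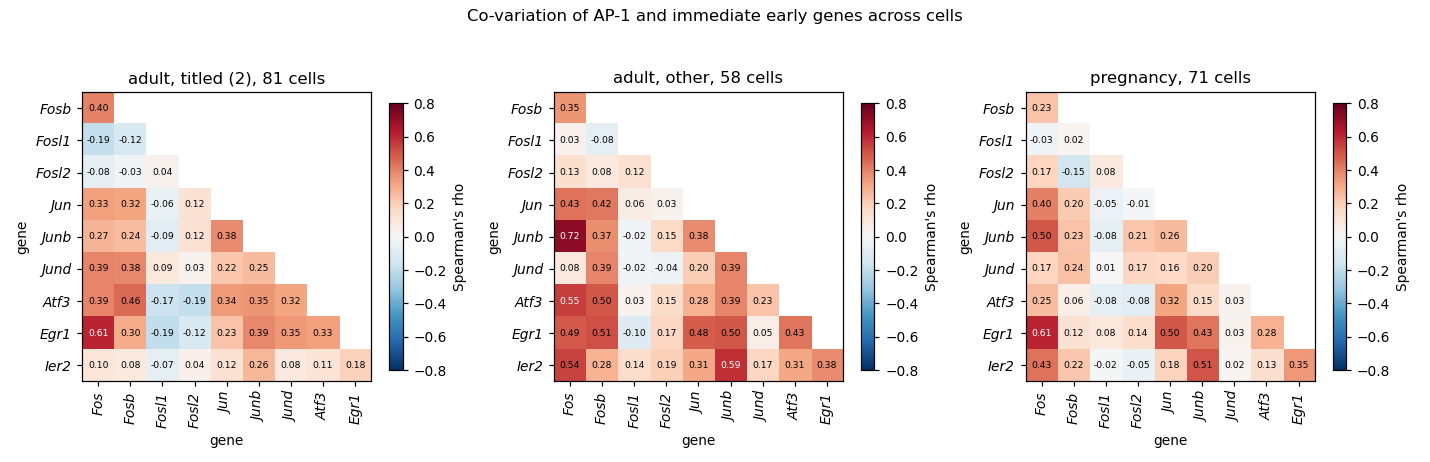
Spearman correlation of log2(CPM + 10) between each pair of the 10 genes over the retained cells of each group; both axes list genes and colour gives rho. Fos with Egr1 reads 0.61, 0.49 and 0.61 in the 3 panels, and the values of Fosl1 and Fosl2 lie between -0.19 and 0.21.

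Measures of the cells were set beside the levels. In other adult cells the mean of log2(CPM + 10) over the 10 genes had a Spearman correlation of -0.32 with assigned reads and 0.51 with the number of basal markers at 100 CPM, against -0.10 and 0.23 in (2)-titled adult cells and 0.00 and 0.09 in pregnancy. Atf3 and Fos led in the relation to basal markers in that set, with 0.53 and 0.42. Correlations with the mitochondrial share over the 10 genes together were 0.17, -0.03 and -0.11 in the same order. The summed luminal genes, which had a median of 155, 191 and 130 CPM, had a correlation of 0.46 with Fosb and 0.42 with Atf3 in (2)-titled adult cells, 0.40 and 0.24 in other adult cells and 0.00 and 0.04 in pregnancy. In other adult cells Jun, Fos, Egr1 and Junb also had correlations of 0.43, 0.36, 0.36 and 0.30 with the luminal sum. For the same genes the correlations were 0.08, 0.31, 0.13 and 0.14 in (2)-titled adult cells and 0.05, 0.07, 0.12 and 0.02 in pregnancy. The part of these measures in the differences between groups was not tested.

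The genes whose pattern over cells was most like the mean of the 10 were found by the smallest of the 3 within-group Spearman correlations, among 2658 genes detected in at least 25% of cells of each group. The closest was Nr4a1, an immediate early nuclear receptor, with 0.48, 0.59 and 0.47. Zfp36, an RNA-binding protein that destabilises AU-rich transcripts, followed with 0.64, 0.45 and 0.38, and Nfkbia, the NF-kappa-B inhibitor, with 0.48, 0.36 and 0.39. The next were Tns1, Hspa1a, Egr2, Gadd45b, Ifrd1, Esyt1 and Plpp3, whose smallest correlation was between 0.24 and 0.35. For Fos alone the nearest were Zfp36, Tob1, Egr2, Niban1 and Postn (smallest correlation 0.24 to 0.33), and for Jund alone Adam15, Ubn2, Rab3gap1, Rnf187 and Hspa2 (0.19 to 0.25). The Jund values are weak and no finding is drawn from them.

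Other immediate early genes were described in the same way. Of 23, 19 had a mean of 50 CPM or more, 1 was at least 2-fold higher in pregnancy than in adult cells and 1 was at least 2-fold lower, where 15.6% and 13.5% of all 4548 genes were. The median log2 ratio was 0.19 against 0.05 over all genes. The higher gene was Cyr61, which encodes a secreted matrix protein, with means of 133, 258 and 728 CPM. The lower one was Dusp1, a phosphatase that switches off MAP kinases, with means of 425, 216 and 58.7 CPM and medians of 224, 7.52 and 6.04 CPM. The next genes at the ends of the list were Klf6 (0.94) and Rhob (-0.67). Both past 2-fold genes were so against each adult set (2.36 and 1.46 for Cyr61, -2.66 and -1.72 for Dusp1).

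Of 15 kinases and promoter factors upstream of the early genes, 12 had that mean, 3 were at least 2-fold higher and 3 at least 2-fold lower, beside the same 15.6% and 13.5% of all genes. Mapk14, the p38 alpha kinase (2.08), and Rps6ka1, a ribosomal S6 kinase downstream of ERK (1.87), had the largest log2 ratios, and Elk4, a partner of the serum response factor (-1.97), and Mrtfb, another of its cofactors (-1.23), the smallest. Mapk14, Rps6ka1 and Mrtfb were past 2-fold against each adult set, although Mrtfb had -0.96 against the other adult set without the highest cell of each group. Elk4 had -0.45 against the (2)-titled set. Its mean in the other adult set was 119 CPM, and 29.6 CPM without the highest cell. Without the highest cell of each group its ratio over all adult cells was -1.02. The median level of each was at or below 10.1 CPM in every group, so these means rest on a minority of cells. Of 7 feedback inhibitors of the pathway, 3 had that mean: Spry2 (1.38), Spry4 (1.10) and Dusp6 (0.57). So 2 were at least 2-fold higher, beside 15.6% of all genes, and Spry4 had only 0.83 against the (2)-titled set. Spry2, an inhibitor of receptor tyrosine kinase signalling, had means of 203, 164 and 502 CPM and medians of 28.8, 68.2 and 310 CPM. It was past 2-fold against each adult set (1.26 and 1.55).

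Among 13 further leucine zipper factors, 7 had a mean of 50 CPM or more, with Mafg (1.03) and Maf (0.59) at the upper end and Crem (-1.49) and Atf4 (-0.67) at the lower. So 1 was past 2-fold in each direction, beside 15.6% and 13.5% of all genes. Mafg reached 100 CPM in 12.3%, 15.5% and 9.86% of cells, fewest in pregnancy. Without the highest cell of each group the ratio of Mafg was 0.83 and that of Crem -1.30. Of 11 genes known as AP-1 targets in other systems, 5 had that mean and 2 were at least 2-fold lower in pregnancy, as were 13.5% of all genes. These were Plaur, the urokinase receptor (-2.35, with means of 210, 204 and 32.5 CPM), and Il6, a cytokine (-2.73, with means of 98.5, 252 and 16.0 CPM), and both were so against each adult set. Il6 reached 100 CPM in 3, 4 and 3 cells only and had medians of 0, and without the highest cell of each group its ratio against the other adult set was -1.27 in place of -3.33. Ccnd1 (0.46) and Cd44 (0.17) lay at the upper end. Of 4 heat shock genes induced by stress, 3 had that mean and none was past 2-fold: Hsph1 (0.28), Dnajb1 (-0.05) and Hspa1b (-0.17).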

How the data were processed

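The authors deposited a table of read pair counts per Entrez gene for each cell, with exon lengths, and these counts were used as deposited. Per the labels and the study's methods, the authors aligned reads to mm10 with Subread 1.5.0 and assigned them by featureCounts to the RefSeq genes supplied with Rsubread. Use of strand is not given in the sources used here, and there are no molecular identifiers, so PCR copies were counted separately. Of 27179 gene IDs, 25275 matched a RefSeq symbol of GRCm38, and the remaining 1904 IDs held 1.66% of reads. The 15 mitochondrial and 124 ribosomal protein genes were left out. Filters followed the study's (50000 reads and 1000 genes), and no doublet caller was run.

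CPM and RPKM were computed from the assigned reads in Python 3.11.15 (numpy 2.4.6, pandas 2.3.3, scipy 1.17.1), and log2 ratios used a pseudocount of 10 CPM. Shares have exact Clopper-Pearson intervals, medians have intervals from binomial ranks, and the limit that a count of 0 reads allows is 3 counts. The alternatives comprised other pseudocounts and scalings, including edgeR 4.0.16 TMMwsp factors, stricter cell filters, thinning and leaving out cells. The ratio script was tested on simulated data. The members and lists were chosen with earlier results of these data known. The 10 members were all named, as were the 2 genes at each end of each list, list genes past 2-fold against both adult sets, and the genes most like the members by correlation. The 6-letter motif, the reference of 583 abundant genes and the comparisons of spread and of detection were added after values had been seen. A table of the whole series was not used here.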

Additional observations from a re-analysis of the deposited data

Results flagged for a closer look

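The cells left out by the filter also held reads of the 10 genes. The 10 genes took 1.22% of the assigned reads in the 31 (2)-titled adult cells left out, 0.615% in the 67 other adult cells left out and 0.827% in the 4 pregnancy cells left out. These shares were singled out because they lie above the limit that a count of 0 allows in cells outside the comparisons. The retained cells of the same groups held 1.05%, 0.734% and 0.990%.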

How the results depend on the processing

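Of the 12 alternatives, the mean of log2 values moved most results, and the all-gene median moved with it by 0.32 (pregnancy over adult). On that scale the median log2 ratio of the 10 genes was 0.89 (pregnancy over adult), 1.00 (over other adult cells) and -0.67 (other over (2)-titled adult cells). The medians over all genes on that scale were 0.38, 0.42 and -0.11 in the same order. The genes past 2-fold numbered 4 (pregnancy over adult), 1 (over (2)-titled cells), 5 (over other adult cells) and 3 (between adult sets). The 4, 1 and 5 were higher in pregnancy, and the 3 were lower in other adult cells. With 100000 reads and 1500 genes per cell the genes past 2-fold numbered 4 (pregnancy over adult), 5 (over other adult cells) and 3 (between adult sets). Without the highest cell of each group the median over other adult cells was 0.45 and no gene was past 2-fold between adult sets (0). With a pseudocount of 100 CPM, 1 gene was past 2-fold over (2)-titled cells. The share of all genes past 2-fold is not given under these alternatives, so these counts have no background beside them. Ier2 over other adult cells turned to 0.72 on the mean of log2 scale and 0.88 without the highest cell, which drops cell 174 by construction. At least 6 of the genes were present in 88.9%, 72.4% and 98.6% at 10 CPM, 8.64%, 3.45% and 9.86% at 500 CPM and 86.4%, 72.4% and 97.2% of cells for 1 read after thinning. The cause of the other changes was not tested. TMMwsp scaling moved the all-gene median by 0.24 and scaling to all reads by -0.15 (pregnancy over adult). Of the values for groups of genes and cells, 101 stayed within their limits, 22 moved and 0 reversed. Of the other values followed, 184 stayed within their limits, 298 moved and 2 were counted as reversed, so most of these depended on the setting. These 2 do not include every change of sign. The pregnancy over adult ratio of Egr1 kept its sign in only 4 of 12 alternatives. The ratio of Atf3 between the adult sets kept its sign in 6 of 12. Leaving out cells with 3 genes of another cell type was chosen after seeing the data. It moved none of the values for groups of genes and cells. No paired analysis was possible because the numbers in the titles only name cells, and no result comes from a test. With no animals named, differences between animals cannot be separated from stage, and Fosl1 and Jund rest on the fewest reads of the 10 genes in each group.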
